A study of Homo sapiens with 3 samples.

Results

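Doubly marked sites inside gene spans are places where a strong H3K4me3 peak and a strong H3K27ac peak overlap. The midpoint of the H3K4me3 peak lies within a protein-coding gene, away from the ends of all annotated genes. The sites were selected on the scores that the authors deposited with each peak. A site was an H3K4me3 peak on chromosomes 1 to 22 with a score of at least 500 that overlapped, by at least 1 bp, an H3K27ac peak with a score of at least 500. Its midpoint had to lie inside the span of a protein-coding gene, called its host here, and more than 2.5 kb from each end of every gene of any kind in the RefSeq table of GRCh38.p14. This rule found 1043 sites, which is 3.36% of the 31074 H3K4me3 peaks on these chromosomes and 14.1% of the 7375 strong H3K4me3 peaks that overlapped strong H3K27ac. It holds for the midpoint only, and in 149 of the sites the H3K4me3 peak itself covered a gene end. Since both scores chose the sites, their scores and the presence of both marks are a description and support nothing here.

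The cells were HCC1599, an established cell line from a triple-negative breast cancer, a tumour type defined by the lack of oestrogen receptor, progesterone receptor and ERBB2 amplification. The series title calls the cells positive for MARCO-TST, a term its labels do not explain. The 3 samples carried no treatment and differed in the antibody: H3K27ac from Active Motif, H3K4me3 from Cell Signaling Technology, and an input without antibody, whose signal was not analysed here. With 1 library per mark and 1 cell line there was no replicate check and no p-value, the read depth behind the peak lists is unknown, and a place without a peak is only one where none was called.

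H3K4me3, trimethylation of histone H3 at lysine 4, is deposited around transcription start sites, above all where the DNA is rich in CpG dinucleotides, and H3K27ac, acetylation at lysine 27, is found at active promoters and active enhancers. Many genes have more than one promoter, and a promoter that lies inside the span of the longest transcript gives a shorter RNA with another first exon, often a protein with another N-terminus. Strong enhancers can also carry some H3K4me3, so the marks alone do not separate an internal promoter from an enhancer inside a gene.

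Sequences of 8 such sites and of 1 gene start are shown first, because they are the points at which marked chromatin met an annotated start inside a gene. They come from the RefSeq promoter table of GRCh38.p14, which lists transcript starts; a start more than 2.5 kb from every gene end is called an internal listed start, and the starts counted in sites below are of this kind. The 8 genes are the first of a list of genes with known or likely internal promoters that had such a start inside a doubly marked site. Each window runs 5′ to 3′ along the gene, from 150 bases before the listed start through the first 30 bases from it on, and capitals mark matches on either strand to the letters of the GC box, the CCAAT box, the TATA box or an ETS site, which are spelled out with the motif counts at the end. DST, which encodes the cytoskeletal linker dystonin, is at chr6:56851876-56852055 on the minus strand. CDKN2A, which encodes p16INK4a and p14ARF from alternative first exons, is at chr9:21974828-21975007 on the minus strand. ANK3, for the membrane adaptor ankyrin-G, is at chr10:60140711-60140890 on the minus strand. TPM3, for a tropomyosin that winds along actin filaments, is at chr1:154183189-154183368 on the minus strand. SEPTIN9, for a filament-forming GTPase, is at chr17:77319368-77319547 on the plus strand. ARHGEF10L, for a guanine nucleotide exchange factor, is at chr1:17520047-17520226 on the plus strand. KANK1, for an adhesion and cytoskeleton regulator, is at chr9:693530-693709 on the plus strand. NFIB, for a nuclear factor I transcription factor, is at chr9:14322358-14322537 on the minus strand, and the window at the start of its span, chr9:14532048-14532227, is given for contrast and was chosen after its values were seen.
DST: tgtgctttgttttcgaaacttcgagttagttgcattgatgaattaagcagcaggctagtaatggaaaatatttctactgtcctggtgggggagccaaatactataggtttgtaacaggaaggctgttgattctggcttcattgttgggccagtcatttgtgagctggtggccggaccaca
CDKN2A: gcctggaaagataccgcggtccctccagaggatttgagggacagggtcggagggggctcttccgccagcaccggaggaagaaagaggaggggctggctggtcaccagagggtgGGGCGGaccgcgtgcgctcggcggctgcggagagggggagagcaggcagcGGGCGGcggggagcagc
ANK3: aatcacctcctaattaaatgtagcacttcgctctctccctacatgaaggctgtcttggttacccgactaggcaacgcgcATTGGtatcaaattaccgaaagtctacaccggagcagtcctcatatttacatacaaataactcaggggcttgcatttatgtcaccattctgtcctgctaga
TPM3: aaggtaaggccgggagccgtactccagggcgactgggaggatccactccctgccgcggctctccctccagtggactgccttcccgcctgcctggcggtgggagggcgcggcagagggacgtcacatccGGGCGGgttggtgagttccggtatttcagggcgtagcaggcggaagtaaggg
SEPTIN9: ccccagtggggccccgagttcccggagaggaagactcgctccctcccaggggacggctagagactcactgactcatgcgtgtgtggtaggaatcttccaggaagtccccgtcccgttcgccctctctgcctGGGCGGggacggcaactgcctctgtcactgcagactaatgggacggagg
ARHGEF10L: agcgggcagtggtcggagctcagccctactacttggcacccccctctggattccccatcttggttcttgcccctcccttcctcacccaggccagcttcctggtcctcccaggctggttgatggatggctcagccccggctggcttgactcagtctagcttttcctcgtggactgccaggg
KANK1: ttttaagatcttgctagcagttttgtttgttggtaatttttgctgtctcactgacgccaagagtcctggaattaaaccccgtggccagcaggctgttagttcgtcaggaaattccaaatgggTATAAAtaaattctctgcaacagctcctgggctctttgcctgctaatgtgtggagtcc
NFIB: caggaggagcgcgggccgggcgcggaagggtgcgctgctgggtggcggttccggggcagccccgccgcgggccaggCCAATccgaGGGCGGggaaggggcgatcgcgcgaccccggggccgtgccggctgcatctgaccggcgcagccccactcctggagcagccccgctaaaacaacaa
NFIB, start of the span: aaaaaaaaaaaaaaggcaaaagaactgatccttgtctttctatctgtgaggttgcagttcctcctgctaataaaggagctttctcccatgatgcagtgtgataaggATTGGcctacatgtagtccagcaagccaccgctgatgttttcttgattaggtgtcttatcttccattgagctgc

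The windows differed in base composition. The NFIB window inside the gene was 76.1% G or C with 23 CpG dinucleotides, while the one at the start of the NFIB span was 41.7% G or C with 1 CpG. CDKN2A had 71.1% and 15 CpG, TPM3 67.8% and 15, SEPTIN9 64.4% and 11, and ARHGEF10L 62.8% and 4. The windows of DST, ANK3 and KANK1 were each 44.4% G or C, with 3, 6 and 3 CpG. KANK1 held a TATA box starting 28 bases before the listed start, TPM3 and SEPTIN9 a GC box 22 and 19 bases before it, CDKN2A 1 GC box on each side of it, and ANK3 and NFIB a CCAAT box 71 and 74 bases before it. A match is only a run of letters and does not show that a factor binds there.

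The doubly marked sites were broad and mostly wrapped in acetylation. Their H3K4me3 peaks had a median width of 3648 bp (exact binomial 95% interval 3516 to 3792, n = 1043), with quartiles of 2658 and 5530 bp and a range of 841 to 38262 bp. Intervals here and below treat peaks as independent, which neighbouring peaks are not, and cover counting error only; those of shares are exact Clopper-Pearson intervals at 95%. Strong H3K27ac covered a median of 94.4% of the H3K4me3 peak (91.8 to 96.0), and covered it whole in 385 sites (36.9%). In 803 sites (77.0%) a single H3K27ac peak of any score lay on the H3K4me3 peak, in 240 there were 2 or more, and VAV3, which encodes a guanine nucleotide exchange factor, had the highest number, 7. The widest strong H3K27ac peak had a median of 4133 bp and was wider than the H3K4me3 peak in 571 sites (54.7%, 51.7 to 57.8). There were 1082 strong H3K27ac peaks on the sites, and 22 of them reached over 2 or more sites, so that 45 sites share an acetylated domain with a neighbour.

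Sites at gene ends looked different in the same files. Of the strong H3K4me3 peaks on strong H3K27ac, 5939 had their midpoint within 2.5 kb of a gene end, and there the median H3K4me3 width was 4132 bp (4083 to 4176), the median cover 68.5% (67.8 to 69.2), and the H3K27ac peak was the wider in 20.6% (19.6 to 21.7). Outside protein-coding spans and away from all ends, 393 doubly marked peaks had a median width of 2641 bp (2525 to 2764), and the H3K27ac peak was the wider in 74.0% (69.4 to 78.3). The internal sites lay between these groups in the share with the wider H3K27ac peak, and the intervals of that share did not overlap. Both scores chose all 3 groups. Their H3K4me3 scores still differed, with quartiles of 3100 and 3100 at gene ends, 1157 and 3100 at the internal sites, and 759.9 and 3100 outside genes. The part of score in the differences between the groups was not tested. Neither width nor cover was a criterion, but the midpoint placed each peak, so a wide peak over a gene end can count as internal. Of the internal sites, 149 covered a gene end. The 746 whose whole peak lay over 2.5 kb from every end had a median width of 3278 bp (3099 to 3365). Their median cover was 95.9%, and the H3K27ac peak was the wider in 58.85% (55.2 to 62.4).

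The scores themselves were high, as the rule made them. The score has no stated unit and piles up at 3100, so it ranks only the lower part of each list; 625 sites (59.9%) had an H3K4me3 score of 3100 or above, 432 (41.4%) an H3K27ac score of 3100 or above, and 253 both. Of 2060 H3K4me3 peaks that scored at least 500 inside genes and away from ends, 50.6% lay on strong H3K27ac. The sites just inside the threshold were in ADGRA3 (scores 567 for H3K4me3 and 500.5 for H3K27ac), RNF6 (3100 and 501) and THOP1 (502 and 3100). The overlapping pairs just outside it were in BAIAP2L1 (508 and 499.7), STIM1 (498 and 3100) and GABRG3 (496 and 1154). These neighbours had H3K4me3 widths of 2125 to 3040 bp inside and 2231 to 2263 bp outside, too few to tell whether width changes at the threshold.

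Transcript starts were not part of the rule, and they divide the sites. An internal listed start of the host lay inside the H3K4me3 peak in 337 of 1043 sites (32.3%, 29.5 to 35.2), beside 10.9% of all 8500 internal H3K4me3 peaks of any score. Among the 879 sites whose host is in the start table the share was 38.3% (35.1 to 41.6). Of these sites 247 held 1 such start and 90 held 2 or more, up to 6, as in RTN4, which encodes the reticulon Nogo; a further 3 sites held only an internal start of another gene. Internal H3K4me3 peaks scoring under 500 held a listed start in 168 of 6440 (2.61%, 2.23 to 3.03), and strong internal H3K27ac peaks that no H3K4me3 peak overlapped in 20 of 946 (2.11%, 1.30 to 3.25).

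Strong acetylation did not go with a higher share of listed starts. Strong internal H3K4me3 peaks without strong H3K27ac held a listed start in 420 of 1017 cases (41.3%, 38.2 to 44.4), and those with no H3K27ac peak at all in 169 of 418 (40.4%, 35.7 to 45.3). These peaks were narrower, with medians of 2067 and 1720 bp, so a start had less room to fall inside by position alone. In peaks of 2 to 4 kb, where widths are nearer, the share was 30.1% (26.0 to 34.3) of 489 doubly marked sites and 54.2% (49.6 to 58.6) of 493 peaks without strong H3K27ac. Within 500 bp of the midpoint a listed start lay in 13.2% of the doubly marked sites (11.2 to 15.4) and in 31.4% of the others (28.5 to 34.3). A wide peak whose start lies off its middle misses that window more easily, so this last pair of values moves with width as well. Over all peaks and in peaks of 2 to 4 kb the intervals were separate from those of peaks without strong H3K27ac.

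**Figure D1:**
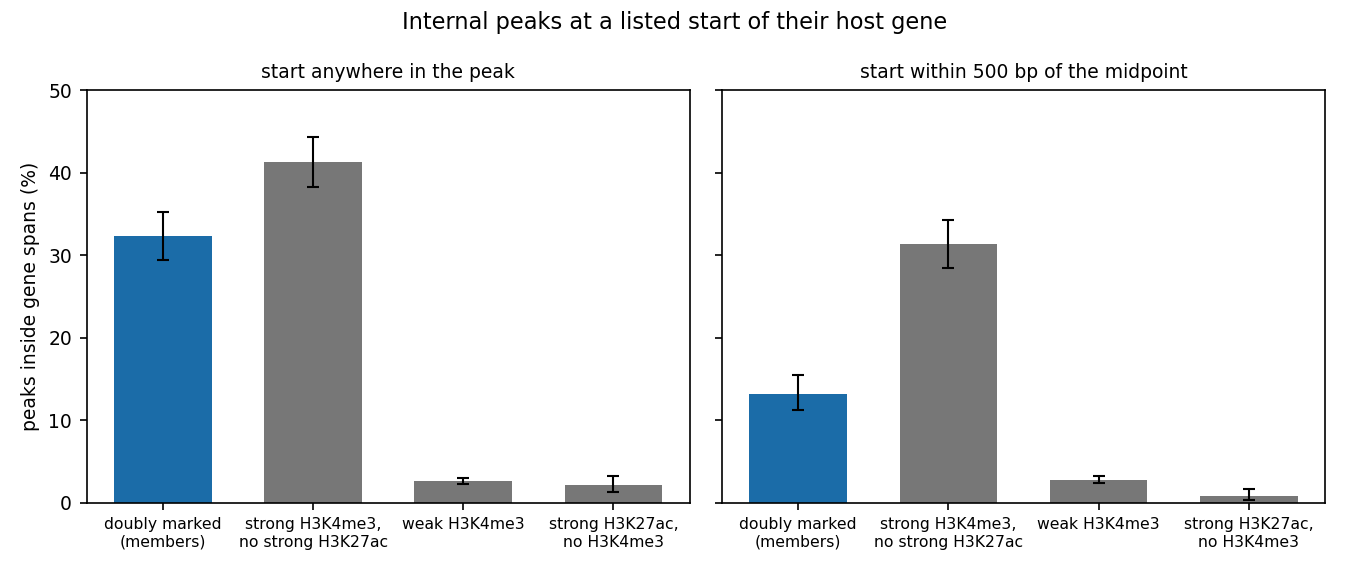
Share of internal peaks (%) with an internal listed start of the host gene, anywhere in the peak (left) or within 500 bp of its midpoint (right), for doubly marked sites (blue) and 3 other kinds of internal peak (grey); bars are shares and whiskers exact 95% Clopper-Pearson intervals over peaks. Doubly marked sites reach 32.3% on the left and 13.2% on the right, below strong H3K4me3 peaks without strong H3K27ac (41.3% and 31.4%) and above the other groups.

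Seen from the annotation, most internal starts were not doubly marked. The table lists 3219 internal starts in 2127 genes on chromosomes 1 to 22, of which 1245 (38.7%) lay in an H3K4me3 peak of any score, 990 (30.8%) in an H3K27ac peak, and 482 (15.0%, 13.8 to 16.2) in a doubly marked site. Listed starts at the start of the gene span carried H3K4me3 in 68.5% and H3K27ac in 53.1% of 13150 cases.

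Sites at an internal listed start and sites without one had different mark shapes. Sites without one can still hold a listed start nearer to a gene end, as the 6594 bp site of VGLL4 does, or have a host outside the start table. The 337 sites at a start had a median H3K4me3 width of 4162 bp (3927 to 4310), and the 706 without had 3364 bp (3232 to 3511). Strong H3K27ac covered a median of 72.5% (69.2 to 77.6) of the H3K4me3 peak at starts and 98.9% (97.4 to 100) elsewhere. The H3K27ac peak was the wider in 104 sites at starts (30.9%, 26.0 to 36.1) and in 467 of the others (66.1%, 62.5 to 69.6). Among sites with the whole peak over 2.5 kb from every end, a restriction chosen after seeing the data, the shares were 27.9% and 76.6%. Sites at starts thus resembled gene ends more than the other sites did in both cover and the share with the wider H3K27ac peak.

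The scores moved with this division. An H3K4me3 score of 3100 or above was found at 88.1% of the sites with a start and at 46.5% of the others, and an H3K27ac score of 3100 or above at 30.6% and 46.6%. Among sites with an H3K4me3 score of 3100 or above, the H3K27ac peak was the wider in 25.6% (20.7 to 30.9) at starts and 38.4% (33.1 to 43.9) elsewhere, a gap under that of all sites. Among sites with H3K4me3 peaks of 2 to 4 kb the shares were 27.2% and 74.3%, and they were 30.9% and 66.8% among sites with a host in the start table. These restrictions were chosen after seeing the data, and how far peak strength accounts for the division was not tested beyond these values.

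**Figure D2:**
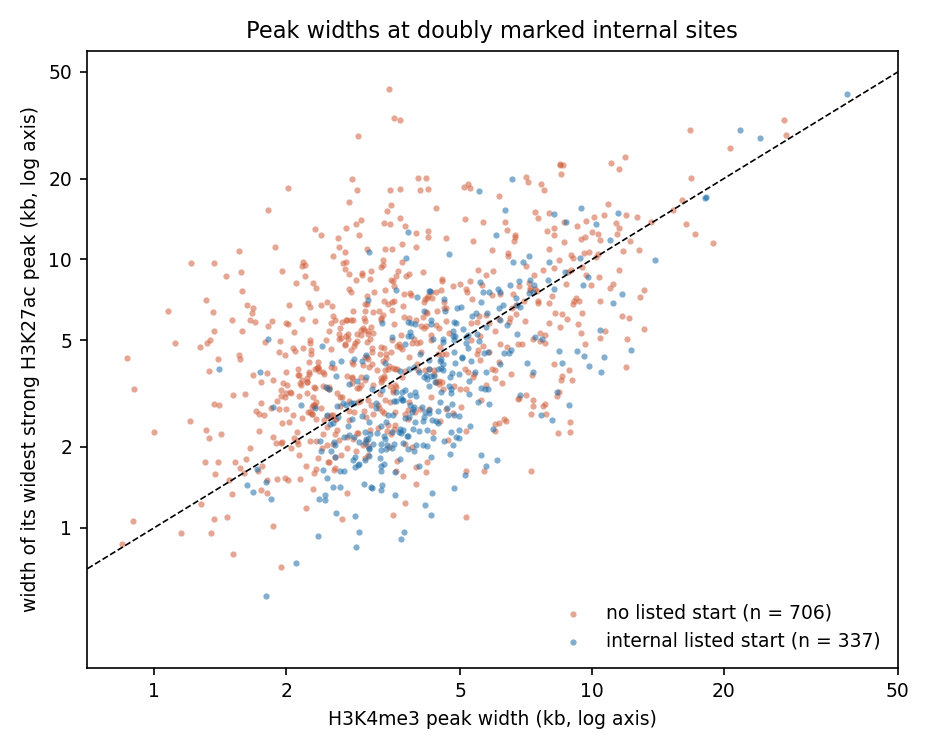
Width of the H3K4me3 peak (kb, log axis) against the width of the widest strong H3K27ac peak on it (kb, log axis) for each of the 1043 sites, coloured by whether the H3K4me3 peak holds an internal listed start (337, blue) or not (706, red); the dashed line marks equal widths. Blue points lie mostly under the line, with the H3K27ac peak wider in 30.9%, and red points mostly above it, with 66.1%.

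Around the listed start, H3K4me3 reached farther into the transcribed side. In 269 sites with 1 group of starts, counting starts within 300 bp of each other as a group, the H3K4me3 peak ran a median of 1339 bp upstream (1251 to 1445) and 2661 bp downstream (2483 to 2879). It reached farther downstream in 235 of them (87.4%, 82.8 to 91.1). Strong H3K27ac covered the start in 252 (93.7%), and there it ran 1194 bp upstream and 1838 bp downstream, farther downstream in 173 (68.7%, 62.5 to 74.3). At 2 kb downstream 78.4% of the sites were still within H3K4me3 and 45.0% within strong H3K27ac.

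**Figure D3:**
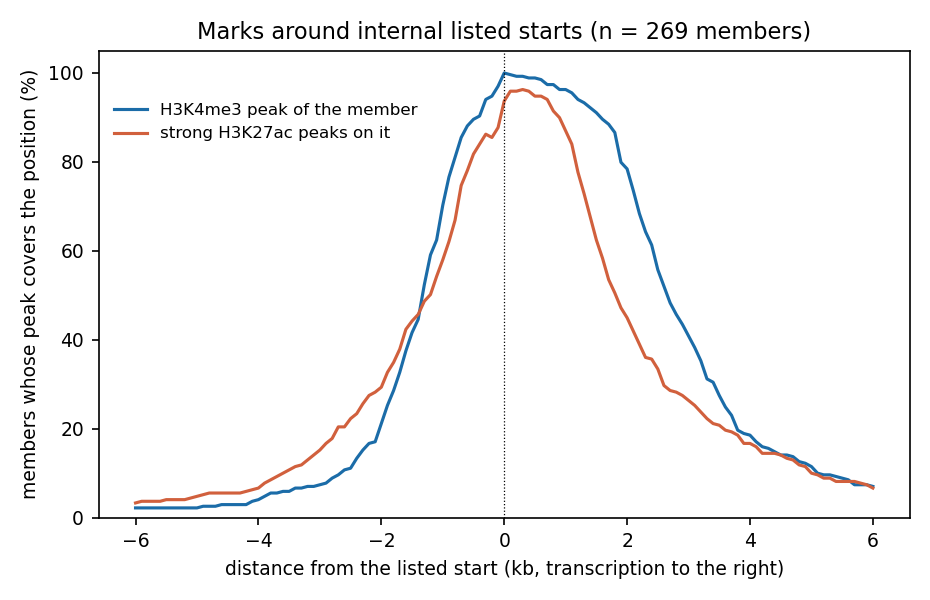
Share of 269 sites (%) whose H3K4me3 peak (blue) or strong H3K27ac peaks (red) cover each position, against the distance from the internal listed start in kb with transcription to the right. Both curves are highest near the start, where H3K4me3 covers 100% by construction and H3K27ac 93.7%, and the H3K4me3 curve extends farther to the right, with 78.4% against 45.0% at 2 kb.

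The hosts were long genes. The 1043 sites lay in 904 of 19126 protein-coding genes, which is 4.73%, and 16 sites had 2 hosts. The median host span was 77041 bp (69285 to 83308), against 24476.5 bp over all protein-coding genes. Up to 10 kb of span 0.469% of genes were hosts, from 10 to 30 kb 3.29%, from 30 to 100 kb 6.46%, from 100 to 300 kb 11.2%, and above that 11.8%. A longer span leaves more room away from ends, so this order follows in part from the rule. By chromosome the share ranged from 2.31% on chromosome 14 to 6.68% on chromosome 10; copy number, which also differs along the chromosomes of a cancer line, was not analysed.

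Most hosts also carried both marks at an own end, counted here as peaks of any score within 1 kb of an end, not always the same end for each mark. This was so for 691 of the 904 hosts (76.4%, 73.5 to 79.2), beside 58.5% of all protein-coding genes. Hosts between the length quartiles of all hosts had it in 77.4% of 452 (73.3 to 81.2), and other genes of the same lengths in 65.7% of 5626 (64.5 to 67.0). With the strand from the start table, which covers 761 hosts, H3K4me3 lay within 1 kb of the start of the span in 612 (80.4%, 77.4 to 83.2). Between the same length quartiles it lay there in 79.8% of 386 hosts (75.4 to 83.7) and in 78.1% of 4527 other genes (76.9 to 79.3), and both marks lay there in 74.6% (69.96 to 78.9) and 64.97% (63.6 to 66.4). For H3K4me3 alone the intervals overlapped, and for both marks they did not. Peaks of the sites themselves were counted here, and the other genes host no site, so part of this gap can follow from the rule. The H3K4me3 peak covered a gene end in 149 sites, and the H3K27ac peak on a site can reach an end as well. For hosts of the 746 sites whose whole H3K4me3 peak lay over 2.5 kb from every end, the first share became 72.4% (68.8 to 75.8). That share is over hosts of all lengths, and the gap at matched lengths without the peaks of the sites was not tested.

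In a group of hosts a site held an internal listed start while no H3K4me3 peak lay at the start of the span. Among the 326 hosts of known strand with a site at an internal listed start, 97 (29.8%, 24.8 to 35.04) had no H3K4me3 peak within 1 kb of the start of the span, 86 of these had no H3K27ac there either, and 195 of the 326 had both marks at the start of the span. Over all 15101 protein-coding genes of known strand, H3K4me3 lay there in 70.2%, so the share without it in these hosts was close to that of all genes. In the 4527 other genes between the host length quartiles it lay there in 78.1%. Among the 435 hosts whose sites held no internal listed start, 52 (11.95%, 9.06 to 15.4) lacked H3K4me3 at the start of the span. A site whose peak runs over the start of the span, as in PHLPP1, itself counts as H3K4me3 there. Listed starts near a gene end are not internal, so hosts of such sites can fall among the 435. The gap between the shares of the 326 and the 435 hosts thus follows in part from these definitions. It was not tested without such sites. In the 97 hosts the sites lay a median of 18494.5 bp from the start of the span (11366 to 21925). The start of the span is not always a listed start, and none is listed there in TPM3 and RBPJ. In HYLS1 and C15orf39 the peak of the site began 1185 and 1166 bp from the start of the span, just outside the 1 kb window. The start of a RefSeq span can be that of a long, rarely used transcript, and RNA was not measured, so which of the starts is used in these cells was not tested.

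The 10 widest of these sites, picked after their values were seen, were in NFIB, ARHGAP29, EDN1, RTN4, NPR3, URI1, PTPRF, LTBP4, TUBA1C and TBL1XR1. In NFIB, chr9:14302887-14324712, a 21826 bp H3K4me3 peak held 5 internal listed starts. The first of these lies 209690 bp from the start of the span, and a 30488 bp H3K27ac peak covered 99.7% of the H3K4me3 peak, which also runs over an end of another gene. In ARHGAP29, which encodes a GTPase-activating protein, an 18137 bp peak held 1 listed start and lay 81993 bp from the start of the span by its midpoint. In EDN1, the gene of the peptide endothelin-1, a 10987 bp peak at 92.1% of the span held 3 listed starts and ran over the far end of the gene. In RTN4 a 10409 bp peak held 6 starts. TBL1XR1, which encodes a subunit of the NCoR corepressor complexes, had a 6617 bp peak with 2 starts and its midpoint only 5935 bp from the start of the span. All 10 had an H3K4me3 score of 3100, and strong H3K27ac covered from 31.0% in URI1 to 100% in NPR3, PTPRF and TBL1XR1.

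Further down this group stood TPM3, HK1, RBPJ, FHL2 and KDM4C, again chosen after their values were seen. The TPM3 site, chr1:154179436-154184765, was 5330 bp wide, 96.9% covered, and its listed start lies 8882 bp from the start of the span. HK1, the gene of hexokinase 1, which has alternative first exons, had a 4518 bp peak with 2 starts and its midpoint 49257 bp into the span. RBPJ, the DNA-binding protein of Notch signalling, had a 3574 bp peak with 2 starts, chr4:26317647-26321220, with its midpoint 213984 bp into the span. FHL2, a LIM-domain cofactor, had a 5565 bp peak that was 49.3% covered, and KDM4C, a histone demethylase, a 5290 bp peak that was 78.9% covered. None of the 5 had an H3K27ac peak within 1 kb of the start of its span.

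**Figure D4:**
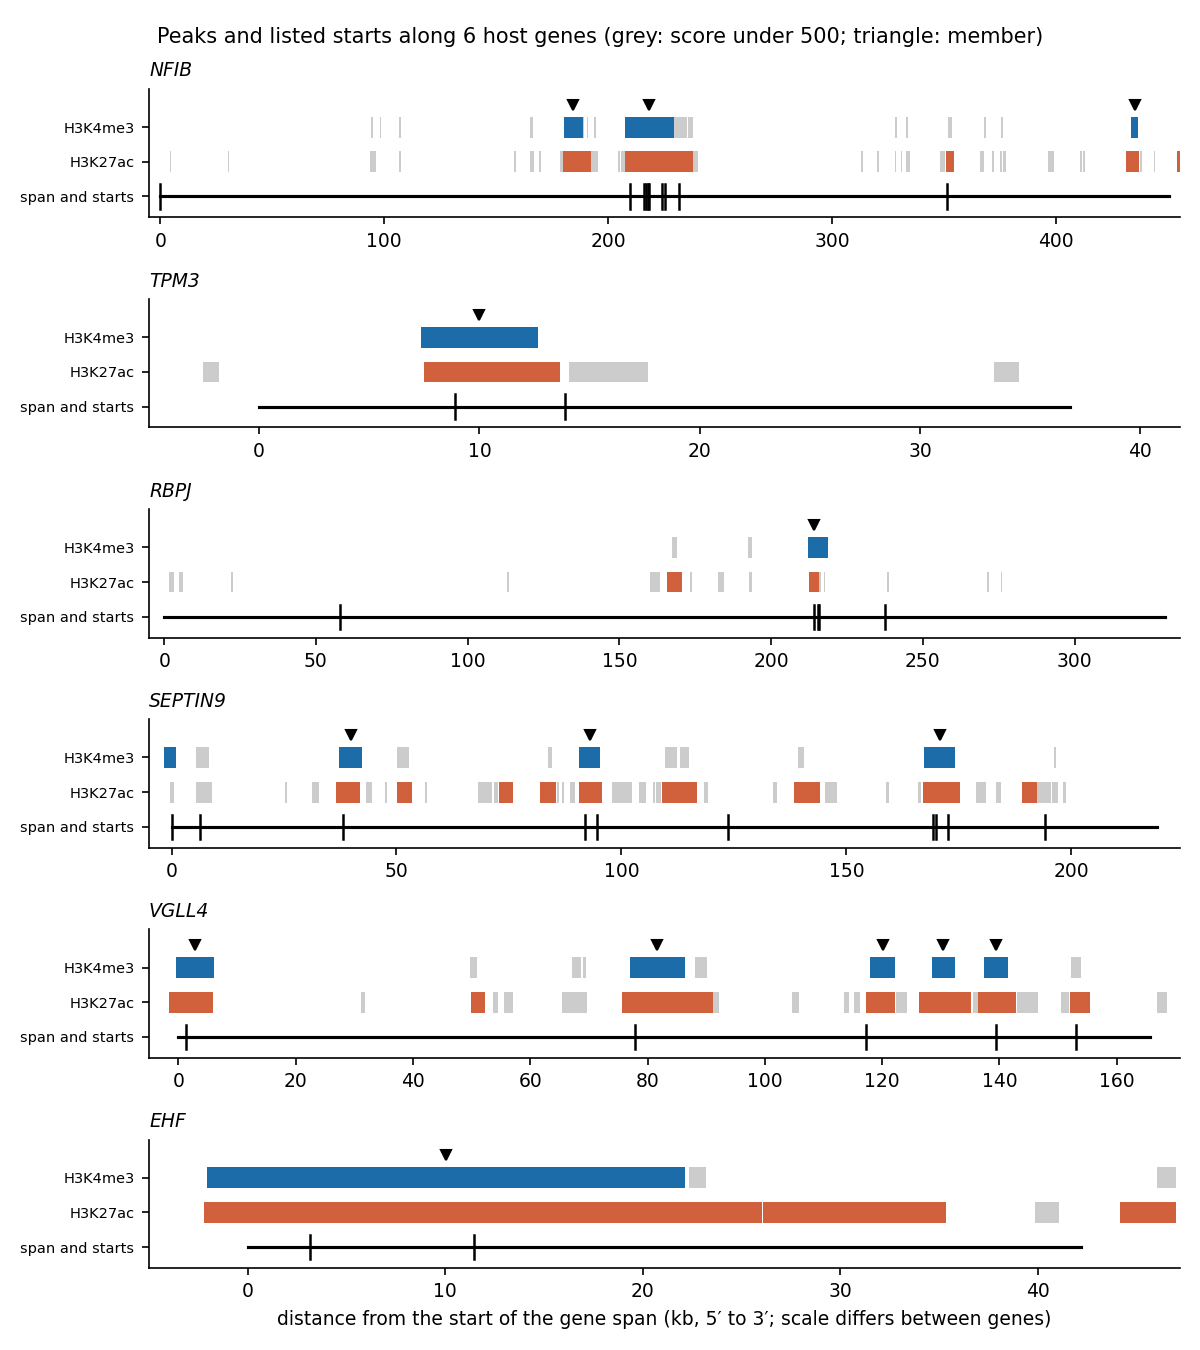
H3K4me3 peaks, H3K27ac peaks and listed starts (ticks) along 6 host genes, against distance from the start of the span in kb, 5′ to 3′, with a scale per gene; peaks scoring under 500 are grey and triangles mark doubly marked sites. NFIB, TPM3 and RBPJ have no H3K4me3 peak at the start of the span, SEPTIN9 and VGLL4 have strong H3K4me3 both there and inside, and the single site of EHF is 1 peak that runs from before the start into the gene.

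Sites lay more often in the 5′ part of the host. Over 892 pairs of site and host with known strand the median position was 33.9% of the way along the span (31.3 to 36.6), and the median distance from the start of the span was 19980.5 bp. The first 25% of the span held 38.7% of the pairs, the next 28.6%, the next 20.5% and the last 12.2%. Sites at a listed start had a median position of 36.6% (32.4 to 42.1) and the others 32.2% (28.5 to 35.4). With the whole peak over 2.5 kb from every end, the median moved to 40.3% (36.1 to 43.5).

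**Figure D5:**
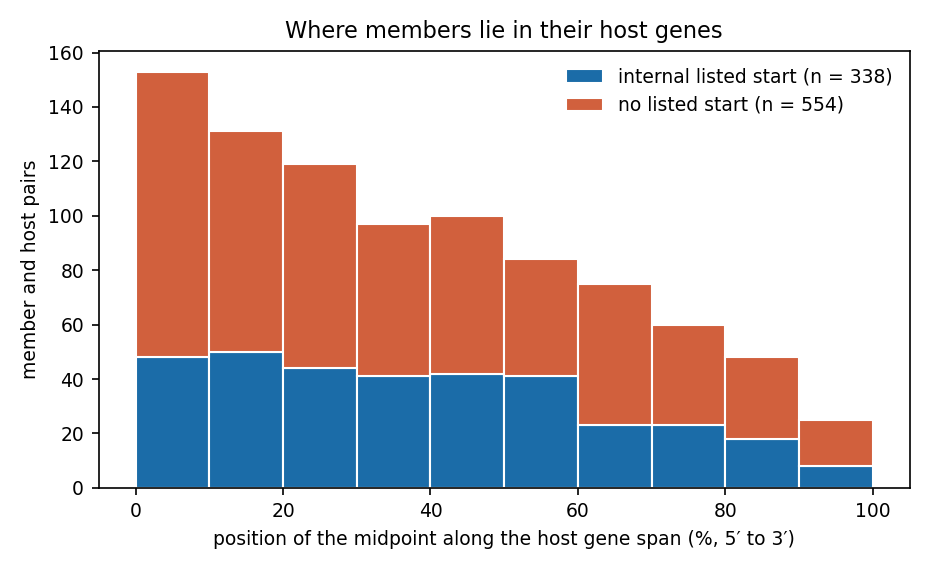
Number of pairs of site and host by position of the peak midpoint along the host span (%, 5′ to 3′, in classes of 10%), stacked by whether the peak holds an internal listed start (338 pairs, blue) or not (554 pairs, red). Counts fall along the span, with 38.7% of all pairs in the first 25% and 12.2% in the last 25%.

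Some genes held several sites. Of the 904 hosts, 125 had 2 or more and 23 had 3 or more, and 280 sites lay in such hosts. Neighbouring sites in a host were a median of 13942 bp apart, with quartiles of 2804 and 47396.5 bp over 155 gaps. VGLL4, whose product binds TEAD factors in competition with YAP, had 5, and no host had more. The VGLL4 sites were 4124, 3817, 4279, 9438 and 6594 bp wide with 5 separate strong H3K27ac peaks; the 9438 bp one, chr3:11635402-11644839, and the 4124 bp one each held 1 listed start, and the 6594 bp one ran over the start of the gene.

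GSE1, AOPEP and PHLPP1 had 4 sites each. In GSE1 the sites lay 50786, 386778, 400869 and 444524 bp from the start of the span, and the last, 7167 bp wide, held 1 listed start. In AOPEP, an aminopeptidase gene, a 1953 bp and a 5956 bp peak stood side by side under 1 H3K27ac peak of 9042 bp, at 65.5% and 66.4% of the span. In PHLPP1, the gene of a phosphatase that acts on AKT, the sites were 10298 bp wide at the gene start and 2732, 2174 and 1958 bp wide farther in, with scores of 3100, 690, 689 and 503. USP54, PDXK, SOD2, PLEC and NFIB had 3 sites each. Of the USP54 sites 2 held a listed start, 1 of them in a peak of 1869 bp with a score of 581. In SOD2, the gene of mitochondrial superoxide dismutase, an 11173 bp peak held 1 listed start and was 58.1% covered by strong H3K27ac. In PDXK, the gene of pyridoxal kinase, 2 sites of 8576 and 8453 bp lay under the same 22485 bp H3K27ac peak. PLEC, which encodes the cytolinker plectin and has many known first exons, had sites of 8637, 2973 and 8464 bp, but its host strand and starts are not in the start table.

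Of the 12 widest sites, 10 ran over a gene end, and all 12 scored 3100 for H3K4me3. ZNF217, an oncogene on 20q that encodes a zinc finger repressor, had the widest at 38262 bp, chr20:53574450-53612711, under an H3K27ac peak of 41467 bp and holding 1 listed start. TRPS1, a GATA-type repressor, followed with 27715 bp, ESYT2 with 27439 bp, EHF, an epithelial ETS factor, with 24221 bp, and NFIB with 21826 bp. ACTN4 (actinin), BARX2 (a homeobox factor), GCNT2 (a glycosyltransferase with alternative first exons), DSP (desmoplakin) and RHPN2 had 20630, 18900, 18179, 17212 and 16734 bp, and all 5 also ran over a gene end. ARHGAP29 and LMNA, the lamin A/C gene, were the exceptions, with 18137 and 16806 bp at 6201 and 9710 bp from the nearest end. The 8 sites with the most H3K27ac-covered bases, from 17624 bp in BARX2 to 38262 bp in ZNF217, were all among these 12.

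The sites farthest from any gene end ranged in width from 1370 to 8884 bp. ARID1B, a subunit of SWI/SNF remodelling complexes, had sites 188950 and 154295 bp from the nearest end, 4650 and 3268 bp wide. CUX1, a homeodomain factor, had a 2186 bp site at 165772 bp, ANK3 a 4112 bp site at 145289 bp, SLC24A3, an ion exchanger gene, a 1370 bp site at 122595 bp, and VAV3 an 8884 bp site at 114827 bp. The VAV3 site held a listed start, those of ARID1B and CUX1 and this one of ANK3 did not, and SLC24A3 is not in the start table. In VAV3 the widest strong H3K27ac peak was 2876 bp. The narrowest sites were in RNF115 (841 bp), AFMID (864 bp), RIPOR1 (895 bp) and AGRN (896 bp); the first 3 held no listed start, AGRN is not in the start table, and strong H3K27ac covered 88.1% to 100% of the 4.

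Genes known for internal promoters were hosts in 18 of 45 cases, with 31 sites, and 9 of the 18 had a site at a listed start; their median span was 217432 bp, and 4.73% of all protein-coding genes and 11.2% of those with spans of 100 to 300 kb were hosts. Among all 761 hosts of known strand, 326 had a site at an internal listed start, a share not far from that of the 18. In CDKN2A the 4827 bp site, chr9:21971740-21976566, held the listed start 20467 bp from the start of the span and was 91.4% covered, and the start of the span carried both marks as well. SEPTIN9 had 3 sites of 5204, 4576 and 6827 bp, which held 1, 2 and 3 listed starts, and both marks at the start of the span. The peaks at the start of its span scored 1261 for H3K4me3 and only 48.6 for H3K27ac. ARHGEF10L had 2 sites with 1 and 2 starts, the second only 40.9% covered. DST had 1 site with a start, 3290 bp wide with a score of 946, and 1 without, 2996 bp wide with a score of 3100. ANK3 had a 6099 bp site with a start 592788 bp into its span and a 4112 bp one without. KANK1 had a 4600 bp site with 1 start, fully covered.

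Other hosts of this list had no listed start in their sites. TCF7L2, a Wnt pathway factor, had a 2345 bp site with a score of 601, and CUX1 the site named above. MACF1, a cytoskeletal crosslinker, had a 3548 bp site and neither mark at the start of its span. GNAS, an imprinted gene for a stimulatory G protein with several first exons, had sites of 1735 and 9040 bp, the wider one running over a gene end. TRIO, PTPRK, NFIA and NFIX had 1, 2, 1 and 3 sites, with widths of 1866 to 4222 bp and scores of 504 to 1074. In NFIX the 3434 bp site lay under an H3K27ac peak of 43367 bp, the widest on any site.

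Transcription factors of breast and other epithelia were hosts in 11 of 31 cases, beside 4.73% of all protein-coding genes, and held 15 sites. The median span of the list was 24460 bp, and 3.29% of genes with spans of 10 to 30 kb were hosts. Spans of its hosts ranged from 9214 bp in KLF6 to 270317 bp in TEAD1, and 11.2% of genes of 100 to 300 kb were hosts. EHF and KLF5 had a site at a listed start, while GRHL2, TFAP2C, TRPS1 and TEAD1 are not in the start table. KLF5, a zinc finger factor of epithelia, had a 10500 bp peak with 1 start, 52.0% covered. GRHL2, a grainyhead factor of epithelial junction genes, had adjacent sites of 4167 and 3995 bp under the same H3K27ac peak of 20163 bp. GRHL1, BCL11A, STAT3, TEAD1 and RREB1 had sites of 2230 to 3822 bp with H3K4me3 scores of 537 to 2522. KLF6 and TFAP2C, short genes of 9214 and 9978 bp, had sites of 11785 and 9177 bp that ran over gene ends. TRPS1 had a second site of 5720 bp, 51248 bp from the nearest end.

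Notch and receptor kinase genes were hosts in 5 of 31 cases, with a median span of 44462 bp, beside 4.73% of all protein-coding genes and 6.46% of those with spans of 30 to 100 kb. MAML2, a Notch coactivator, had sites of 3762 and 2143 bp, both fully covered and without a listed start. IGF1R, the receptor of insulin-like growth factor 1, had 3 sites of 2398, 1627 and 2764 bp, the first 2 under 1 H3K27ac peak of 6784 bp. ERBB2, the receptor amplified in another breast cancer type, had a 4501 bp site 13082 bp into its span, 55.6% covered. DDR1, a collagen receptor kinase, had a 7371 bp site with 5 listed starts. RBPJ is described above.

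Cytoskeleton and adhesion genes, with a median span of 88462 bp, were hosts in 9 of 33 cases, and chromatin regulators, with 98918 bp, in 9 of 32. Beside these stand the 4.73% of all protein-coding genes and the 6.46% of those with spans of 30 to 100 kb. Spans of the hosts ran from 45044 bp in DSP to 307433 bp in TNS3, and from 12912 bp in BRD2 to 434754 bp in ARID1B. Of genes with spans of 100 to 300 kb, 11.2% were hosts. TJP1, for the tight junction protein ZO-1, had a 4103 bp site with 2 listed starts, and LMNA had a 3090 bp site with 1. CDH1, the E-cadherin gene, which is not in the start table, had a 1560 bp site under an H3K27ac peak of 10774 bp. MYH9 (nonmuscle myosin) had a site of 2116 bp and TNS3 (a tensin) 1 of 2140 bp. Among the chromatin regulators BRD2, a bromodomain protein that binds acetylated histones, had a 12274 bp site with 2 listed starts that ran over a gene end, and the other hosts that are in the start table had no listed start in their sites. KMT2E, SMARCA4, CHD2 and HDAC7 had sites of 1936 to 3639 bp with H3K4me3 scores of 538 to 1257, and TET3 a site of 3511 bp with a score of 3100.

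Over the 5 lists, 52 genes hosted 75 sites; 19 of the sites held a listed start, which sites in genes outside the start table cannot do, and 42 were covered whole by strong H3K27ac. The lists were chosen with earlier results of these data known, and their genes differ in span, so their host shares are descriptions. Each list stands beside the span class of its median, which does not match the spans of all its genes. A strong internal H3K4me3 peak missed the rule for want of strong H3K27ac in 26 genes of these lists, with 29 such peaks, 8 of them with no H3K27ac peak at all. ESR1, the oestrogen receptor gene, was among the 16 of these genes that hosted no site: its 3177 bp H3K4me3 peak, chr6:151806627-151809803, scored 3100 and held 3 listed starts, while its highest H3K27ac score was 110. NFIA had a 1922 bp peak with a score of 3100, 1 listed start and no H3K27ac peak. DNMT3A, a DNA methyltransferase gene, had a 1982 bp peak with 3 listed starts and a highest H3K27ac score of 102. RBPJ had a second peak of 3007 bp next to its site, with a score of 3100 and a highest H3K27ac score of 88.7. As a check of the cells, both marks lay at an end of 6 of 6 epithelial marker genes, and at none of 3 leukocyte, 2 endothelial and 3 fibroblast ones.

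The sequence at marked internal starts was that of CpG-rich promoters. In 300-base windows from 250 before to 50 after the listed start, taking 1 window per peak, the 337 sites had a median G and C content of 64.3% (63.0 to 66.3) and a median ratio of observed to expected CpG of 0.785 (0.724 to 0.810). Windows with over 50% G and C and a CpG ratio over 0.6 made up 66.2% of them (60.8 to 71.2). The same held for 75.5% (71.1 to 79.5) of the 420 starts in strong H3K4me3 without strong H3K27ac, for 86.9% of 4282 starts of spans in doubly marked peaks, for 46.9% of all 33725 windows, and for 8.63% (7.40 to 9.99) of 1889 internal starts with no H3K4me3 peak. Marked internal starts thus stood much nearer to gene starts than to unmarked internal starts in CpG content.

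A set of 7 motifs was searched on both strands of these windows, and none of the 7 contains another. GGGCGG, the GC box bound by SP and KLF factors, was present in 64.4% of the sites (59.0 to 69.5), 71.2% of starts in strong H3K4me3 without strong H3K27ac, 18.1% of unmarked internal starts and 45.0% of all windows. TATAAA was present in 5.34% of the sites (3.20 to 8.31), 16.2% of unmarked internal starts and 11.6% of all windows. CCGGAAG, an ETS site, was in 11.6% of the sites (8.36 to 15.5), against 21.5% of the starts of doubly marked gene ends and 10.3% of all windows. CCAAT was in 35.9% of the sites, 37.1% of the starts of doubly marked gene ends and 34.4% of all windows. TGANTCA, an AP-1 site, was in 6.82% of the sites (4.37 to 10.1), 3.71% (3.17 to 4.32) of the starts of doubly marked gene ends, 3.57% (2.01 to 5.82) of starts in strong H3K4me3 without strong H3K27ac, 11.8% of unmarked internal starts and 7.67% of all windows. CATTCC, a TEAD site, was in 11.6% of the sites, 9.95% of the starts of doubly marked gene ends, 17.2% of unmarked internal starts and 14.0% of all windows. CACGTG, an E-box, was in 7.42% of the sites, 11.0% of the starts of doubly marked gene ends, 4.66% of unmarked internal starts and 7.18% of all windows. GC-rich motifs are more frequent in GC-rich windows, and the part of base composition in these shares was not tested. No window was taken for the 706 sites without an internal listed start, and their sequence, exons and introns were not analysed here.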

How the data were processed

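Chromatin immunoprecipitation and sequencing of HCC1599 cells gave 1 library each for H3K4me3 and H3K27ac. Per the labels' protocols, formaldehyde cross-linked chromatin was fragmented with ultrasound and micrococcal nuclease. Per the submitters' processing notes, the tools were Bowtie2 and MACS 1.4 and the build hg38; parameters are not given in the sources used here. The authors deposited 1 peak list per mark with a score whose unit is not stated; its values start at 30 and pile up at 3100.

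Peak overlap and positions, counted from 1, were computed with Python 3.11.15, pandas 2.3.3, numpy 2.4.6 and scipy 1.17.1. Gene spans and listed starts, with strand, came from RefSeq tables of GRCh38.p14, which place 19126 protein-coding genes on chromosomes 1 to 22 among 56756 genes in all. The plan had named transcript starts; no transcript annotation was used, and the starts of the promoter table, several per gene, took their place. In 2943 of 2943 overlapping windows on opposite strands the sequences matched after reverse complement. The rule was run on simulated data: of 300 planted sites on 19126 genes 0 were missed and 0 falsely found. The planted sites were placed with the same gene ends and distance calculation as the rule, so an error in those would not show.

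The sites and gene lists were chosen with earlier results of these data known. Named genes are the 10 hosts with most sites, the hosts of the 12 widest, of the 8 with most H3K27ac bases, of the 6 farthest from ends and of the 4 narrowest, up to 8 hosts per list, and 3 on each side of the threshold. A few genes chosen this way are not reported here. Hosts without H3K4me3 at the span start, listed hosts beyond 8 in a list, the genes in the drawing of loci, and the listed genes that missed the rule were picked after their values were seen. Alternatives were other scores, distances from gene ends, overlap, placement, joining of peaks, and chromosome X.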

Additional observations from a re-analysis of the deposited data

Results flagged for a closer look

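Chromosome X was outside the choice of sites, and 15 H3K4me3 peaks there met every other part of it; the input was not analysed, so no control count stands beside this. Their hosts included TBL1X, APOO, BCOR, UBA1, PHF8, GNL3L, AMOT, PLS3, PGRMC1, LAMP2, MTM1 and FLNA. BCOR, which encodes a corepressor of BCL6, held 3 of them, with H3K4me3 widths of 1945, 6649 and 2259 bp and H3K27ac scores of 1225, 3045 and 603. The widest was the 8393 bp peak in PGRMC1, 2599 bp from the nearest gene end by its midpoint. FLNA, the filamin A gene, had a 4518 bp peak with an H3K27ac score of 2089.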

How the results depend on the processing

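The number of sites follows the score and distance that define them. With scores of at least 100, 1000 and 3100 there were 3064, 632 and 253 sites in 2108, 582 and 246 hosts, 70.7%, 40.6% and 25.6% of strong internal H3K4me3 peaks carried strong H3K27ac, the median H3K4me3 width was 2092, 4638 and 6861 bp, 18.1%, 37.2% and 36.0% of sites held a listed start, and the median position was 36.8%, 31.2% and 25.4%. Median cover became 100% at a score of 100 and 90.8% (1000), and the share of hosts with both marks at an end 84.6% at 3100. Over 1 kb from every end there were 2566 sites in 2334 hosts, a share with H3K27ac of 58.4%, an end share of 89.2%, a width of 4398 bp, a cover of 77.5%, a start share of 20.5% and a position of 11.5%. Over 5 kb the end share was 73.1%, the width 3374 bp, the cover 96.3%, the start share 36.1% and the position 40.3%. Over 10 kb there were 491 sites in 432 hosts, with an end share of 73.4%, a width of 3432 bp, a cover of 97.3% and a position of 43.2%. With 50% of the peak covered, the share with H3K27ac was 45.2% and the cover 96.9%. With the whole peak away from ends, the share with H3K27ac was 45.4%, the end share 72.4%, the width 3278 bp, the start share 36.5% and the position 40.3%. Joining H3K4me3 peaks under 1 kb apart gave a width of 4292 bp and a cover of 89.2%. Ends within 2.5 kb gave an end share of 80.0%, and starts within 500 bp of the midpoint a start share of 13.2%. Added after seeing the data, the share of sites with the wider H3K27ac peak was 25.6% at starts and 38.4% elsewhere at H3K4me3 scores of 3100 or above, and 74.3% elsewhere for peaks of 2 to 4 kb and 76.6% with the whole peak away from ends. In all, 55 of 109 recomputed values moved, counting shares and medians past their interval and counts past the limit set for them; the median of 1 H3K27ac peak per site held in all 11 alternatives, and adding chromosome X moved no value. No paired analysis was possible because each mark has 1 library. Depth could not be read from the lists, and peak edges depend on the digestion and on the calling.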
